A study of Mus musculus with 6 samples.

Results

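The genes described here are 8 mouse genes whose mRNAs are known to begin with a 5′ terminal oligopyrimidine (TOP) tract but which belong neither to the ribosomal protein nor to the initiation and elongation factor symbol families: Tpt1, Rack1, Fau, Naca, Btf3, Pabpc1, Hnrnpa1 and Nap1l1. They were taken by symbol from a table of 47643 genes, and all 8 were present and passed the filter on low counts. The table holds bulk RNA-seq counts from the intestine of male C57BL/6 mice. The Myc-deleted group (genotype MycΔIE, ERT2; 3 libraries) was set against a control group with floxed Myc alleles (genotype Mycfl/fl; 3 libraries). Both groups were 7 to 8 weeks old, received tamoxifen by intraperitoneal injection and ate a 60% high-fat diet for 2 weeks. ERT2 denotes a tamoxifen-inducible construct. The labels name neither the promoter that drives it nor the intestinal segment, and they do not say whether the controls carry Cre. They also do not say whether the libraries come from separate animals, so the p-values measure the spread between these samples, which may be technical.

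A TOP tract is a cytidine at the cap followed by an unbroken run of pyrimidines. LARP1 binds the cap and this tract, and the kinase complex mTORC1 controls that binding, so that cells switch the translation and the storage of TOP mRNAs together when nutrients or growth signals change. Most TOP mRNAs encode ribosomal proteins and translation factors. The intestinal epithelium renews continuously from dividing crypt cells that need new ribosomes, and MYC is known as a broad activator of genes for ribosome production.

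The annotated transcript starts of the 8 genes are shown because the tract at the start is what defines the class. For each gene the first 30 bases are those of the annotated transcript with the longest starting run in GENCODE M21 (GRCm38), and the capitals mark the leading cytidine and the pyrimidines that follow it without a break.
Tpt1: CTTTTCCgcccgctcccccctccccccgcg
Rack1: CTTTTTCTCCacagggtcgtggtggcagcc
Fau: CTCTTTCTTgactccatcttcgcggtagca
Naca: CTCgctcgttctctttctgccgccatcttg
Btf3: CTTgcgtccccgcgtgtgtgcgccttctct
Pabpc1: CCCCTTCTCCCCggcggttagtgctgagag
Hnrnpa1: CTTTCTgctctttgacgctgccgaggaagc
Nap1l1: CTTTTTTagcgccatctgctcgcggcgccg

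These starts lie on GRCm38 at chr14:75845331-75845360 (plus strand, Tpt1), chr11:48800360-48800389 (plus, Rack1), chr19:6057951-6057980 (plus, Fau) and chr10:128035635-128035664 (plus, Naca). The others lie at chr13:98316938-98316967 (minus strand, Btf3), chr15:36608944-36608973 (minus, Pabpc1), chr15:103240454-103240483 (plus, Hnrnpa1) and chr10:111473227-111473256 (plus, Nap1l1). Each is exonic sequence at the 5′ end of its transcript, which is annotated as a retained-intron transcript for Tpt1 and as protein-coding for the other 7. The run was 12 bases long in Pabpc1, 10 in Rack1, 9 in Fau, 7 in Tpt1 and in Nap1l1, 6 in Hnrnpa1 and 3 in Naca and in Btf3. A run of at least 5 bases was thus annotated for 6 of the 8 genes, or 75.0%, against 8.51% of 21951 protein-coding genes judged by the same rule. For Tpt1 this rests on the retained-intron transcript, since its coding transcripts began with runs of 3 and 0 bases. In Naca the run CTCTTTCT began at base 11 of the same transcript, and in Btf3 the run CCTTCTCTC began at base 23. The high share among the 8 follows in part from their choice as known TOP mRNAs. Taking the longest run over all annotated transcripts also favours genes with many transcripts. The cap site used in these samples was not measured.

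Library totals ranged from 10636658 to 11157715 counts in the Myc-deleted group and from 9956938 to 11328693 counts in the control group, and 3 counts correspond to 0.265 to 0.301 CPM, the usual scaling of counts to the library total. Myc, the targeted gene, had 3.29, 4.36 and 5.81 CPM in the Myc-deleted libraries, against 5.86, 6.05 and 6.03 CPM in the control libraries. The edgeR quasi-likelihood test did not call Myc (log2 fold change -0.41 ± 0.22, Benjamini-Hochberg adjusted p = 0.318). Its groups did not overlap, but Myc-deleted library 3 lay almost at the control level, and the difference gave p = 0.1 in a two-sided exact permutation test, which is the lowest p possible with 3 libraries a group. "Myc-deleted" stands for the label throughout. The extraction protocol names liver, whereas the other labels name intestine. Intestinal epithelial markers summed to 22819 to 24434 CPM in the Myc-deleted libraries and 22394 to 25165 CPM in the control libraries. Of these 10 genes, 0 were called by the edgeR quasi-likelihood test. Hepatocyte markers summed to 3.39 to 4.94 CPM in the Myc-deleted and 5.17 to 6.12 CPM in the control libraries, without overlap. Of 3 tested hepatocyte genes, 1 (Alb) was lower. It was also the only 1 with a negative log2 fold change, and the median of the 3 was 0.25.

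The mRNAs were lower in the Myc-deleted intestine as a group: 6 of the 8 fell, 0 rose, and all 8 had a negative log2 fold change. The 6 that fell were Rack1, Tpt1, Naca, Hnrnpa1, Pabpc1 and Fau, and the 2 that did not pass the test were Btf3 and Nap1l1. Among all 12720 genes tested, 3.73% were called lower and 4.22% higher by the edgeR quasi-likelihood test at a Benjamini-Hochberg adjusted p under 0.05. Every Myc-deleted library was below every control library for 7 of the 8 mRNAs, which was the case for 13.7% of all genes tested, while 27.8% had no overlap between the groups in either direction. On the log2 scale, the middle of the 8 fold changes was -0.32, against a median of -0.0021 over all genes tested. Without adjustment, 7 of the 8 were lower and 0 higher at p under 0.05 in the edgeR test. Of all 12720 genes tested, 1329 were lower and 1492 higher at that threshold. DESeq2 and limma voom each called 6 of the 8 lower and 0 higher. Over all 12720 genes, DESeq2 called 472 lower and 580 higher, and limma voom called 482 lower and 522 higher. In bulk tissue, fewer cells of a type and less RNA per cell cannot be told apart.

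**Figure D1:**
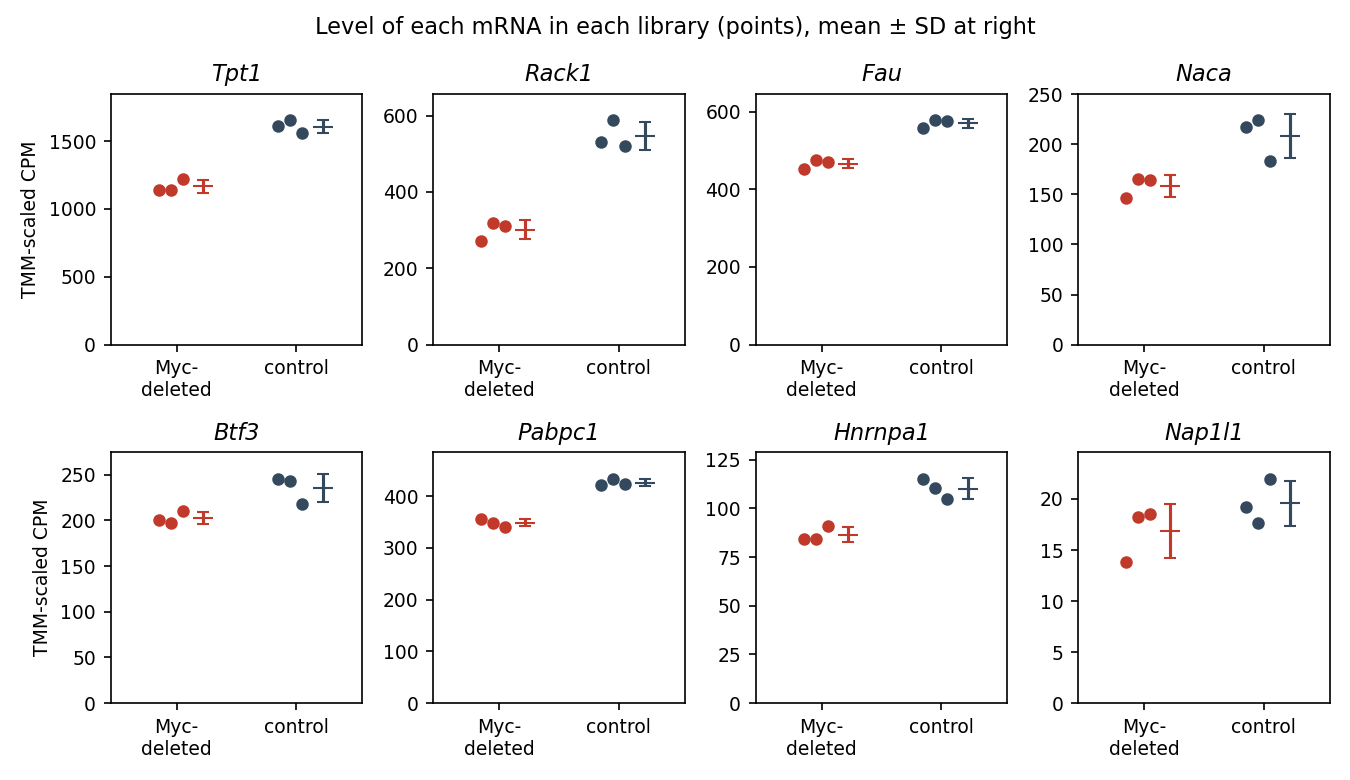
Level of each of the 8 mRNAs in TMM-scaled CPM (vertical axes from 0, one panel per gene), with a point for each library and the mean ± SD (n = 3) to the right of the points. The Myc-deleted points lie below the control points in 7 panels and overlap them for Nap1l1.

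Rack1 had the largest change of the 8. It encodes a scaffold protein of the small ribosomal subunit that docks kinases and signalling proteins on the ribosome. Its level was 273, 319 and 311 CPM in the Myc-deleted libraries, against 529.9, 587 and 521 CPM in the control libraries. The lowest control library was far above the highest Myc-deleted library, and Myc-deleted library 1 was the lowest of its group. The means were 301 ± 24.6 CPM in the Myc-deleted and 546 ± 36.0 CPM in the control libraries (SD, n = 3 each), a log2 fold change of -0.86 ± 0.09 (SE), so the level fell by 45.0% (edgeR quasi-likelihood test, Benjamini-Hochberg adjusted p = 0.00085). Of 12720 genes, Rack1 ranked 33 by p. The call held in each of the 6 fits that left out 1 library, with log2 fold changes between -0.91 and -0.80.

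Tpt1, which encodes the translationally controlled tumour protein, an abundant cytosolic protein known from growth and survival pathways, was the most abundant of the 8. It had 1141, 1142 and 1223 CPM in the Myc-deleted libraries, against 1613, 1653 and 1557 CPM in the control libraries. The groups were well separated, and the spread within each was small. The means were 1169 ± 47.2 CPM in the Myc-deleted and 1608 ± 47.9 CPM in the control libraries, and the level fell by 27.3% (log2 fold change -0.46 ± 0.08, edgeR adjusted p = 0.00837). This call also held in each of the 6 fits that left out 1 library, the largest adjusted p being 0.0372, without control library 2.

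Fau encodes a precursor in which a ubiquitin-like protein is fused to the ribosomal protein eS30, so its product is part of the small subunit even though its symbol is not in the ribosomal protein series. Its level was 453, 475 and 470.1 CPM in the Myc-deleted libraries, against 556, 577 and 575 CPM in the control libraries. The libraries of each group lay close together and the groups did not overlap. Fau fell narrowly past the threshold, with a log2 fold change of -0.29 ± 0.07 (edgeR adjusted p = 0.0341). It missed the threshold whichever library was left out, with adjusted p between 0.0697 (Myc-deleted library 1 left out) and 0.118 (control library 2 left out), while the log2 fold change stayed between -0.31 and -0.27.

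Naca and Btf3 encode the alpha and beta subunits of the nascent polypeptide-associated complex, which sits at the ribosomal exit tunnel and shields new chains. Naca had 146, 165 and 165 CPM in the Myc-deleted libraries, against 217, 224 and 183 CPM in the control libraries. Control library 3 was the low one of its group but still above every Myc-deleted library. Naca fell with a log2 fold change of -0.39 ± 0.09 (edgeR adjusted p = 0.0337). Without control library 3 the adjusted p was 0.0212, and when any other 1 library was left out the call was lost, with adjusted p between 0.0541 (Myc-deleted library 3) and 0.135 (control library 2).

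Btf3 had 201, 198 and 209.8 CPM in the Myc-deleted libraries, against 245, 243 and 218 CPM in the control libraries. Here too control library 3 was the lowest control, and it lay just above the Myc-deleted libraries. The log2 fold change of -0.22 ± 0.08 did not pass the test (edgeR adjusted p = 0.120), and it passed under none of the 17 alternative fits. The log2 ratio of Naca to Btf3 was -0.36 ± 0.10 in the Myc-deleted libraries and -0.18 ± 0.07 in the control libraries (SD), and the groups touched without overlapping (exact permutation p = 0.1, 0.12 after adjustment over 6 ratios).

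Pabpc1 encodes the main cytoplasmic poly(A)-binding protein, which couples the mRNA tail to initiation. It had 356, 349 and 341 CPM in the Myc-deleted libraries, against 421, 433 and 423 CPM in the control libraries. The groups were clearly apart and their spreads were the smallest relative to the mean among the 8. The log2 fold change was -0.29 ± 0.07 (edgeR adjusted p = 0.0306). The call held without Myc-deleted library 1 (adjusted p = 0.0420) and was lost when any other 1 library was left out, with adjusted p between 0.0772 (control library 3) and 0.116 (control library 2).

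Hnrnpa1 encodes a nuclear RNA-binding protein that acts in splicing and in mRNA export. Its level was 84.3, 84.2 and 91.2 CPM in the Myc-deleted libraries, against 115, 111 and 105 CPM in the control libraries. The lowest control library was above the highest Myc-deleted library. Hnrnpa1 fell with a log2 fold change of -0.35 ± 0.08 (edgeR adjusted p = 0.0208). It stayed past the threshold when library 3 of either group was left out (adjusted p = 0.0255 for the Myc-deleted and 0.0388 for the control library). It missed the threshold when any other 1 library was left out, the adjusted p ranging from 0.0524 for Myc-deleted library 1 to 0.0851 for control library 1.

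Nap1l1 encodes a histone chaperone that carries H2A-H2B dimers, and it was the least abundant of the 8. It had 13.8, 18.2 and 18.5 CPM in the Myc-deleted libraries, against 19.2, 17.6 and 21.96 CPM in the control libraries. The groups overlapped, since control library 2 was below 2 of the Myc-deleted libraries, and Myc-deleted library 1 was the low one. The log2 fold change of -0.22 ± 0.14 did not pass the test (edgeR adjusted p = 0.413). Without Myc-deleted library 1 it was -0.09, and without control library 3 it was -0.13.

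**Figure D2:**
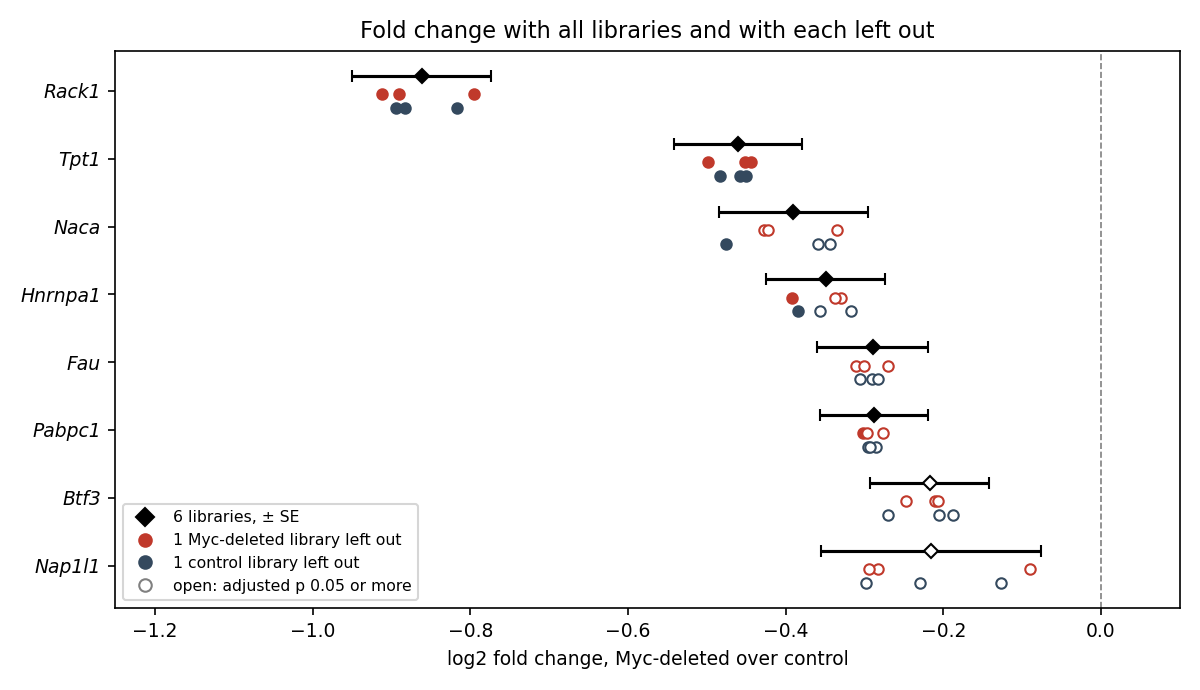
Log2 fold change of each of the 8 mRNAs, Myc-deleted over control, over all 6 libraries (diamonds, ± SE) and with each library left out in turn (circles, filled for an adjusted p under 0.05). Rack1 stays between -0.91 and -0.80 and Tpt1 between -0.50 and -0.44, while the other 6 lie between -0.47 and -0.09.

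With 1 library left out, the number of the 8 called lower was 3 without Myc-deleted library 1, 2 without library 2 and 3 without library 3. It was 2 when control library 1 or control library 2 was left out, and 4 for control library 3. Rack1 and Tpt1 were among those called in each of these fits. The number of all genes called lower also shrank in these fits, to between 233 (control library 2 left out) and 447 (Myc-deleted library 1 left out). Control library 2 stood apart in smooth muscle markers, which summed to 105 CPM there, against 31.5 and 18.9 CPM in the other control libraries and 17.3 to 23.8 CPM in the Myc-deleted libraries. None of these 7 smooth muscle genes passed the edgeR test, although all 7 had a negative log2 fold change, with a median of -1.28. The log2 fold changes of the 8 TOP mRNAs without that library were negative throughout, with -0.82 for Rack1 and -0.45 for Tpt1.

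Markers of other cells also differed between the groups, and their part in the result was not tested. Myeloid markers summed to 88.6 to 93.4 CPM in the Myc-deleted libraries and 101 to 123 CPM in the control libraries, with 1 of 6 tested genes lower. The myeloid genes did not move together, as only 3 of the 6 had a negative log2 fold change. Their values ran from -1.55 to 0.43, with a median of 0.049. Erythrocyte markers summed to 12.4 to 14.8 CPM in the Myc-deleted and 20.2 to 28.4 CPM in the control libraries, with 2 of 4 lower. Pancreatic acinar markers summed to 6.77 to 7.99 CPM in the Myc-deleted and 3.38 to 3.47 CPM in the control libraries, the 1 tested gene being higher, while Cpa1, Prss2 and Pnlip were at 0. Markers of cycling crypt cells summed to 166 to 215 CPM in the Myc-deleted libraries and 214 to 233 CPM in the control libraries, with 1 of 9 lower (Hmgb2). Of these 9 genes, 6 had a negative log2 fold change, and the median was -0.016. The sums of these crypt genes overlapped slightly between the groups. B and plasma cell markers summed to 3334 to 4168 CPM in the Myc-deleted and 2621 to 4236 CPM in the control libraries, with 0 of 8 called.

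The 8 mRNAs together made up 0.261% to 0.282% of the counts in the Myc-deleted libraries, against 0.354% to 0.393% in the control libraries. Within that pool the makeup shifted: Rack1 held 10.2% to 11.6% of it in the Myc-deleted libraries and 14.3% to 15.3% in the control libraries. Tpt1, which held the largest part, contributed 41.5% to 43.2% in the Myc-deleted and 43.0% to 43.4% in the control libraries. The log2 ratio of Rack1 to Fau, both small-subunit components, was -0.63 ± 0.09 in the Myc-deleted libraries and -0.06 ± 0.08 in the control libraries. The log2 ratio of Rack1 to Btf3 was 0.57 ± 0.12 in the Myc-deleted and 1.21 ± 0.09 in the control libraries. Neither ratio overlapped between the groups, and each gave p = 0.1 in a two-sided exact permutation test, the smallest that 3 against 3 allows, or 0.12 adjusted over the 6 ratios examined. The 6 ratios were chosen after counts of some of these genes had been seen.

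Per kilobase of coding transcript, Tpt1 stood at 1079.5 ± 43.6 CPM in the Myc-deleted libraries and 1485 ± 44.2 CPM in the control libraries, and Fau stood at 926 ± 22.4 CPM in the Myc-deleted and 1132 ± 22.7 CPM in the control libraries. Rack1 followed at 208 ± 17.0 CPM in the Myc-deleted and 377 ± 24.9 CPM in the control libraries, and Btf3 at 228 ± 7.20 CPM in the Myc-deleted and 265 ± 16.9 CPM in the control libraries. The next 3 were lower. Pabpc1 stood at 124 ± 2.57 CPM in the Myc-deleted and 151 ± 2.42 CPM in the control libraries. Hnrnpa1 stood at 49.8 ± 2.29 CPM in the Myc-deleted and 63.5 ± 3.0 CPM in the control libraries, and Nap1l1 at 11.3 ± 1.77 CPM in the Myc-deleted and 13.2 ± 1.48 CPM in the control libraries, with overlapping groups. By the median coding transcript length, the order by level was Tpt1, Fau, Rack1, Btf3, Pabpc1, Hnrnpa1, Nap1l1 in the control libraries, while in the Myc-deleted libraries Rack1 lay slightly below Btf3. That exchange depends on transcript length, since Btf3 stood at 186 CPM per kilobase in the Myc-deleted libraries when its longest coding transcript was used. The order of Tpt1 and Fau depends on length too: with its shortest coding transcript Fau stood at 1189 CPM per kilobase in the Myc-deleted and 1453 CPM in the control libraries. With its longest, Tpt1 stood at 999.6 CPM per kilobase in the Myc-deleted and 1375 CPM in the control libraries. The place of Naca could not be fixed, because its annotated coding transcripts are 885 and 6745 bases long and gave 179 or 23.5 CPM per kilobase in the Myc-deleted libraries.

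The 8 mRNAs were then set beside the classic TOP mRNAs and beside the partners and relatives of their products, since the class is defined by the start of the mRNA and not by what the protein does. All 78 cytosolic ribosomal protein mRNAs had a negative log2 fold change, and 73 fell, with a median of -0.63. Of 11 translation factors with known TOP mRNAs, 9 fell, with a median of -0.52. They included Eef1a1 and Eef1b2, subunits of the complex that delivers aminoacyl-tRNA, and Eef2, the translocase. Eef1b2 averaged 137 ± 8.23 CPM in the Myc-deleted libraries and 234 ± 25.9 CPM in the control libraries (log2 fold change -0.77 ± 0.09, edgeR adjusted p = 0.00161). The calls in both lists were on the low side, and the median of the 8 mRNAs, -0.32, lay between these medians and that of all genes.

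Rack1 was the exception, as 2 of the 78 ribosomal protein mRNAs and 0 of the 11 factor mRNAs had a larger fall in log2 fold change. For Tpt1 the numbers were 68 of 78 and 8 of 11. For Pabpc1 they were 76 of 78 and 9 of 11, and for Fau, itself a ribosomal protein precursor, they were also 76 of 78 and 9 of 11. The differences in fold change between these mRNAs were not tested beyond the ratios above.

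**Figure D3:**
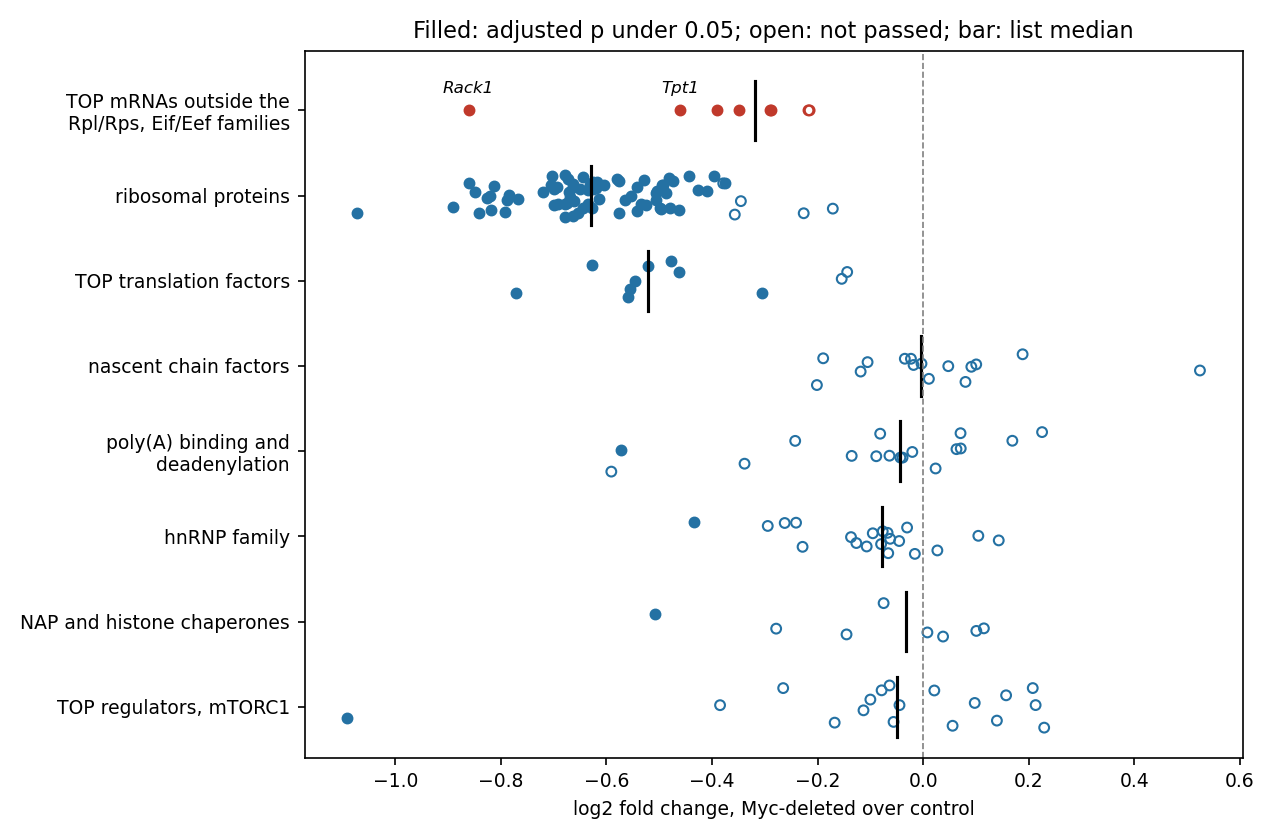
Log2 fold change, Myc-deleted over control, of each tested gene (points) in the 8 TOP mRNAs and in 7 lists of related genes, with filled points for an adjusted p under 0.05 in the edgeR test and a bar at each median. The medians are -0.32 for the 8 mRNAs, -0.63 for the ribosomal proteins and -0.52 for the TOP translation factors, and between -0.08 and -0.0032 for the other 5 lists.

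The genes that work with the 8 were read against the 3.73% of all tested genes called lower, and most genes of any kind did not pass the test. Of 15 tested factors that meet the nascent chain at the ribosome, such as the signal recognition particle and chaperones, 0 were called by edgeR, DESeq2 or limma voom. At an unadjusted p under 0.05 the edgeR test gave 1 of the 15 lower and 1 higher, against 1329 lower and 1492 higher of all 12720 genes. The median log2 fold change of the 15 was -0.0032. Btf3l4, the close relative of Btf3, averaged 12.7 ± 0.74 CPM in the Myc-deleted libraries and 13.6 ± 2.98 CPM in the control libraries (log2 fold change -0.11 ± 0.16, edgeR adjusted p = 0.762). Without control library 1 its log2 fold change was 0.0050.

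Among 17 tested partners of Pabpc1 in poly(A) binding and deadenylation, 1 fell: Pabpc4, the inducible cytoplasmic poly(A)-binding protein. Its level was 33.4, 32.1 and 35.3 CPM in the Myc-deleted libraries, against 46.7, 53.1 and 50.3 CPM in the control libraries. The groups were well separated, and its log2 fold change of -0.57 ± 0.09 (edgeR adjusted p = 0.00359) exceeded that of Pabpc1. The log2 ratio of Pabpc1 to Pabpc4 was 3.37 ± 0.09 in the Myc-deleted libraries and 3.09 ± 0.07 in the control libraries, without overlap (exact permutation p = 0.1, 0.12 adjusted over 6 ratios). The nuclear Pabpn1, which binds growing tails, averaged 51.6 ± 1.64 CPM in the Myc-deleted and 53.0 ± 1.19 CPM in the control libraries (edgeR adjusted p = 0.811). Paip2b, an inhibitor of poly(A)-binding protein, lay just outside the threshold with a log2 fold change of -0.59 ± 0.16 (edgeR adjusted p = 0.0522), and it was named after its value was seen. Without adjustment, 4 of the 17 partners were lower and 0 higher at p under 0.05 in the edgeR test. Of all 12720 genes, 1329 were lower and 1492 higher at that threshold. A negative log2 fold change was seen for 11 of the 17.

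Of 20 heterogeneous nuclear ribonucleoprotein (hnRNP) genes other than Hnrnpa1, 1 fell, Hnrnpll, a splicing regulator known from lymphocytes. It averaged 22.3 ± 0.97 CPM in the Myc-deleted libraries and 30.1 ± 1.25 CPM in the control libraries (log2 fold change -0.43 ± 0.09, edgeR adjusted p = 0.0156), and this call was lost when control library 1 or control library 2 was left out. The relatives of Hnrnpa1 did not pass, with log2 fold changes of -0.14 for Hnrnpa2b1, -0.07 for Hnrnpa3 and -0.13 for Hnrnpa0. The list still leaned low: 17 of the 20 had a negative log2 fold change, against 6390 of all 12720 genes tested. Without adjustment, 5 of the 20 were lower and 0 higher at p under 0.05 in the edgeR test. Of all genes tested, 1329 were lower and 1492 higher at that threshold. The log2 ratio of Hnrnpa1 to Hnrnpa2b1 was -1.83 ± 0.10 in the Myc-deleted libraries and -1.62 ± 0.03 in the control libraries, without overlap (exact permutation p = 0.1, 0.12 adjusted over 6 ratios).

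Of 8 tested genes of the Nap1 family and other chaperones of H2A and H2B, 1 fell. This was Npm1, nucleophosmin, a nucleolar protein that also acts in ribosome assembly, with 61.4 ± 5.19 CPM in the Myc-deleted libraries and 87.4 ± 5.13 CPM in the control libraries (log2 fold change -0.51 ± 0.09, edgeR adjusted p = 0.00761). Nap1l4, the relative of Nap1l1 with the same chaperone role, had a log2 fold change of 0.12 ± 0.10 (edgeR adjusted p = 0.554). The log2 ratio of Nap1l1 to Nap1l4 was -1.43 ± 0.16 in the Myc-deleted libraries and -1.08 ± 0.31 in the control libraries, with overlapping groups (exact permutation p = 0.2, also 0.2 after adjustment).

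**Figure D4:**
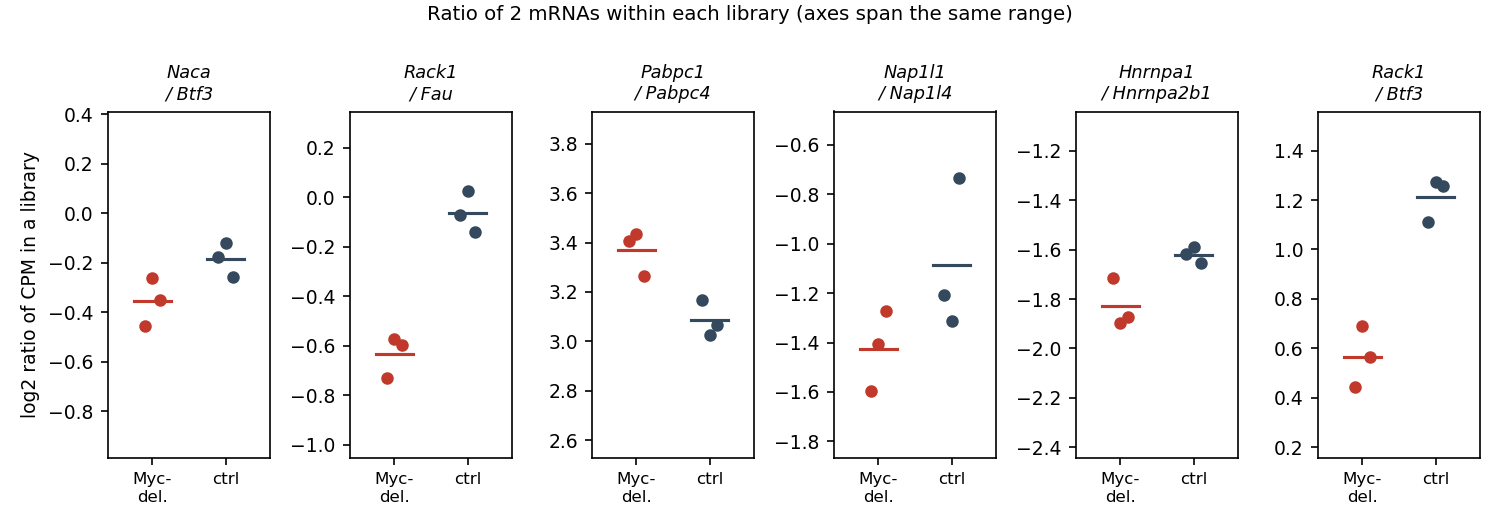
Log2 ratio of 6 pairs of mRNAs in each library (points, with a bar at each mean), with the Myc-deleted libraries left of the control libraries. Rack1 to Fau averaged -0.63 in the Myc-deleted and -0.06 in the control libraries, and Nap1l1 to Nap1l4 is the 1 pair whose groups overlap.

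Among 18 regulators of TOP mRNAs and members of the mTORC1 pathway, 1 fell, Deptor, an inhibitor of mTOR. It had 11.9, 12.5 and 9.41 CPM in the Myc-deleted libraries, against 30.01, 22.1 and 20.02 CPM in the control libraries, a log2 fold change of -1.09 ± 0.17 (edgeR adjusted p = 0.00469). All 3 Myc-deleted libraries were below all 3 control libraries. Larp1, which encodes the binder of the TOP tract, averaged 141 ± 4.01 CPM in the Myc-deleted libraries and 147 ± 6.07 CPM in the control libraries (edgeR adjusted p = 0.70). Mtor, the kinase itself, averaged 40.4 ± 1.86 CPM in the Myc-deleted and 36.7 ± 4.44 CPM in the control libraries (edgeR adjusted p = 0.463). These are mRNA levels, and the activity of the pathway and the translation of the TOP mRNAs were not measured.

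Among the mRNAs whose levels followed the mean of the 8 most closely over the 6 libraries were Rpl6 (Pearson r = 0.998), Rpl14 (0.996), Rpl23a (0.995), Rpl18 (0.995) and Rpl3 (0.994), out of 4525 genes whose average log2 CPM was 5 or more. Each of these encodes a protein of the large ribosomal subunit. The 6 libraries share the difference between the groups and the scaling, so these values describe likeness only. Rpl6 averaged 249 ± 19.0 CPM in the Myc-deleted libraries and 389 ± 24.4 CPM in the control libraries.

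An annotated pyrimidine start was also looked for among all other genes. Leaving out the 8 mRNAs, the ribosomal proteins and the listed translation factors, 1253 tested protein-coding genes had an annotated starting run of at least 5 bases. Of these, 36 were called lower (2.87%) and 45 higher (3.59%), and the median over them was -0.0056 in log2 fold change. Of the 10481 such genes with a shorter run, 333 were called lower (3.18%). Among the ribosomal protein genes, 34 of 78 (43.6%) had an annotated run of at least 5 bases, although their mRNAs are known TOP mRNAs, so the annotated starts miss part of the class. Within the 8, Naca fell with an annotated run of 3 bases, and Nap1l1 did not pass the test with a run of 7.

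The promoter windows of the 8 genes were searched for CACGTG, the E-box bound by MYC with its partner MAX, which reads the same on both strands. RefSeq windows from 250 bases before to 50 after the gene start (GRCm38.p6) matched 7 of the 8 genes, all but Pabpc1. The letters CACGTG were in 0 of these 7 windows, in 6 of 57 ribosomal protein windows (10.5%) and in 2187 of all 27025 windows (8.09%). No match says only that these letters are not in these windows.

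Several of the 8 genes have processed pseudogenes or overlapping genes that could share reads with them. Pseudogenes matched by sequence carried counts equal to 3.40% to 9.86% of those of Nap1l1 and 0.691% to 2.56% of those of Hnrnpa1. For Tpt1 the share was 0.861% to 1.39%, for Fau 1.30% to 1.85% and for Naca 0.759% to 2.42%, and Rack1 had no matching pseudogene. With these counts added to their parent genes, 6 of the 8 were again called lower. Tpt1, Rack1 and Nap1l1 carry small nucleolar RNA genes on the same strand. Btf3 overlaps the antisense gene Gm9828 over 585 bases and Rack1 overlaps Trim41 over 31 bases, and whether counting used the strand is not given in the sources used here.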

How the data were processed

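Polyadenylated RNA of 6 libraries was prepared with a stranded mRNA kit, per the labels' protocols. The authors deposited RSEM expected counts per gene, unscaled between libraries. The submitters' processing notes name cutadapt, STAR, Picard, RSEM and mm10 without versions. The annotation release is not named in the labels. Of the genes, 99.1% were matched to GENCODE M21 by Ensembl identifier, 82.1% with the same version.

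For testing, the expected counts were rounded to integers, and genes with low counts were removed by filterByExpr (at least 10 counts, total at least 15). After TMM scaling, Myc-deleted was compared with control by the quasi-likelihood F-test of edgeR 4.0.16 (R 4.3.3), adjusted by Benjamini-Hochberg over all genes at a threshold of 0.05. The older edgeR dispersion was used instead of the bias-adjusted one after both had been seen, to match earlier processing of these data. SE is the size of the log2 fold change divided by the root of the F statistic. Levels are TMM-scaled CPM with SD, and log2 CPM used a prior count of 2. Ratios and the level of Myc were compared by two-sided exact permutation tests.

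The 8 genes and all lists were chosen with earlier results of these data known. Also named were the paralogues of the 8, Larp1, Mtor, Npm1, up to 4 called genes of each list by p, and genes most like the 8 in level over the libraries. A result for 1 gene is not reported here. Not all genes this rule allows are described, and this was decided with their values in view. Pseudogenes were matched with blastn at 90% identity and 30% coverage on the same strand. The test was checked on simulated data, with its pass marks for small changes lowered after the first run. Alternatives were RLE and upper-quartile scaling, TMM without the TOP genes, DESeq2 1.42.0, limma 3.58.1 voom, 2 filters, a replicate block, pseudogene counts added by symbol and each library left out. Pseudogene counts added by sequence and the bias-adjusted dispersion were added after seeing the data.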

Additional observations from a re-analysis of the deposited data

How the results depend on the processing

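The number of the 8 mRNAs called lower was 6 in each of the 10 alternatives that kept all libraries and used no replicate block. With the replicate number as a block it was 4, as Fau (edgeR adjusted p = 0.0623) and Pabpc1 (0.0632) missed the threshold. Libraries of the same number shared only that number: their deviations from the group means correlated at 0.026, 0.052 and 0.019, although each library correlated best with its own number. Leaving out 1 library left 2 to 4 of the 8 called, 233 to 447 genes lower and 229 to 503 genes higher, with fewer samples in each such fit, while the median log2 fold change of the 8 stayed between -0.35 and -0.31. None of the 8 was called higher in any of the 17 alternatives, and every value of the 8 in them was negative. Upper-quartile scaling gave 449 genes higher and 591 lower, so that 43.2% of calls were higher, against 53.1% in the TMM fit. The median of all genes stayed between -0.043 and -0.001. The 1 reversal was Btf3l4 without control library 1, at 0.0050, and its values with 1 library left out ranged from -0.27 to 0.0050. The cause of these shifts was not tested. Among the partners of Pabpc1, 2 genes were called lower in 5 alternatives, against 1, and no hnRNP gene was called without control library 1 or 2. The log2 fold change of Myc ranged from -0.65 to -0.23 with 1 library left out. With 3 libraries a group, small changes such as those of Btf3 and Nap1l1 were not resolved.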
